A study of Mus musculus with 6 samples.

Results

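Kinesins are motor proteins that use ATP to move along microtubules or to take their ends apart. Mitotic kinesins build and separate the spindle poles, align chromosomes and carry out cytokinesis, and many of them are made mainly in G2 and M phase, so their transcripts follow the number of dividing cells in a tissue. Transport kinesins carry vesicles, organelles, RNA and ciliary cargo in cells that need not divide. Several of the latter are best known from neurons, and others, such as Kif5b, are found in most cell types.

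The family was taken as every gene whose platform symbol is Kif followed by a number and an optional letter and digit, or Kifc followed by 1 digit, with the brightest probe set standing for each gene. This gave 40 genes of 22180 measured. By textbook role, 12 were assigned to mitosis, 15 to transport, and 13 to other or mixed functions such as cilia and microtubule dynamics. All 40 were tested, with no filter on dim values. Cenpe, a kinesin of the kinetochore, does not carry a Kif symbol and is given with the partners of the mitotic motors.

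Wild-type arrays held RNA of YFP+ luminal mammary epithelial cells from Rosa26-Stop-YFP females, sorted 10 to 14 days after Ad-K8-Cre, an adenovirus that expresses Cre recombinase from a keratin 8 promoter, was delivered into the mammary ducts (replicates 1, 2 and 4, each of a different mouse). Tumor arrays held RNA of mammary tumors of Trp53L/L;Brca1L/L females that had received the same virus several months before (tumors 23, 24 and 25). The labels call these tumors Trp53/Brca1-null, give no ages, and do not state whether each tumor grew in a mouse of its own. If 1 animal gave several tumors, the p-values measure partly the spread within that animal. Both groups received Ad-K8-Cre, and only the wild-type cells are described as sorted, so the tumor arrays also hold RNA of other cells in the tumor. In such bulk RNA, fewer cells of a type and less RNA per cell cannot be told apart.

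All values are log2 RMA expression values, in which 1 unit is a doubling of signal. Levels of different genes come from different probes and are not compared with each other. The 95th percentile of 1088 olfactory receptor genes, which neither cell type is known to use, served as a mark for background on each array. It was between 3.69 and 3.85 on wild-type arrays and between 3.19 and 3.44 on tumor arrays. Luminal keratin and adhesion genes averaged 8.86 to 9.53 on wild-type arrays and 7.0 to 8.29 on tumor arrays. These averages were above that mark in both groups, but Krt19 of that list lay under it in tumor 25, at 2.05.

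The promoters of the kinesins are given first, because most mitotic members with a promoter window hold a short sequence there. Genes were taken by symbol and textbook role, but lists and motif search were chosen with earlier results of these data known. The CHR element, TTTGAA, is known as the site through which MuvB complexes such as DREAM and MYBL2-MuvB hold cell cycle genes off in resting cells and turn them on in G2 and M. The CCAAT box, bound by NF-Y, often accompanies it. RefSeq promoter windows of assembly GRCm38.p6, from 250 bases before to 50 after an annotated start, were searched on both strands for TTTGAA and for CCAAT, and 32 of the 40 kinesins had a window. The stretches below run from 100 bases before to 20 after the start, 5′ to 3′ on the gene's strand, with matches to either motif in capitals (TTCAAA and ATTGG are the matches on the opposite strand). They were chosen because they belong to the 3 kinesins that passed the test between the groups (Kif20b, Kif14 and Kif5c) and to the 5 other mitotic motors with the largest differences that have a window.
Kif20b, chr19:34922258-34922377, plus strand: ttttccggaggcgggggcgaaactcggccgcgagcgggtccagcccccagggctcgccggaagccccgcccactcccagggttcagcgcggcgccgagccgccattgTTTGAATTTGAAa
Kif14, chr1:136467748-136467867, plus strand: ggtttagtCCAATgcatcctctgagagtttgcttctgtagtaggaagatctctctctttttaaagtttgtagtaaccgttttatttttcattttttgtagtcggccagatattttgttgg
Kif23, chr9:61946780-61946899, minus strand: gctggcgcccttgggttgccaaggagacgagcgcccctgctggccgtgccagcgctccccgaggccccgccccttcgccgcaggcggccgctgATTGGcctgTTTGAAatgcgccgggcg
Kif18b, chr11:102925105-102925224, minus strand: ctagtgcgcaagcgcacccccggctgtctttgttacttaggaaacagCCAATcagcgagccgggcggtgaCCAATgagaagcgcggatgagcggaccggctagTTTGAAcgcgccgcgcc
Kif11, chr19:37376282-37376401, plus strand: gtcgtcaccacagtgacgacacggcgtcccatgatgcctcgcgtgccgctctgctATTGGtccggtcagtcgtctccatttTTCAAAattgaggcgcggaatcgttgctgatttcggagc
Kif15, chr9:122950981-122951100, plus strand: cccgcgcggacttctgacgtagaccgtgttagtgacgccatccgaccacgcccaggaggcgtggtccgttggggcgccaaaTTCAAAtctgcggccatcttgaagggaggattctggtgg
Kif22, chr7:127042401-127042520, minus strand: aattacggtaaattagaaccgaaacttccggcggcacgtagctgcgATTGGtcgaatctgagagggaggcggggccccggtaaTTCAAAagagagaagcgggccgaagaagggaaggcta
Kif5c, chr2:49619186-49619305, plus strand: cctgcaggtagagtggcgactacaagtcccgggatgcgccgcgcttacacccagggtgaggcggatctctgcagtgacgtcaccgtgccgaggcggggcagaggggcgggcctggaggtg

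Of the 11 mitotic kinesins with a window, 10 held TTTGAA on either strand and 7 held CCAAT, and those 7 held both. Of the 10 transport kinesins with a window, 1 held TTTGAA (Kif1a, in the second of 2 windows) and 3 held CCAAT, with none holding both. Counted per gene in the same way, 20.2% of the 27025 genes of the table held TTTGAA, 41.1% held CCAAT and 7.97% held both; over its 32851 single windows the shares were 17.9%, 37.4% and 6.95%. Counted with the first transcribed base as 1, the match nearest the start began at 8 in Kif20b, which carries 2 copies side by side, at 3 in Kif23, at 4 in Kif18b, at 2 in Kifc1 and at 20 in Kif4. Negative positions lie before the start, and it began at -19 in Kif11 and in Kif15 and at -17 in Kif22. In Kif14 and Kif2c the matches lay farther out, at -228 and -103, and in Kif18a neither motif was found in this window. The 2 motifs overlapped in none of the kinesin windows. Of the 11 other kinesins with a window, Kif26b and Kif27 held TTTGAA. Kif2a and Kif2b, kinesin-13 motors like the mitotic Kif2c, had a window and did not hold it. Kif20a, Kif5a, Kif5b, Kif13b, Kifc2, Kifc3, Kif19a and Kif21b were not matched to a window. A match is a run of letters and no measurement of binding.

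**Figure D1:**
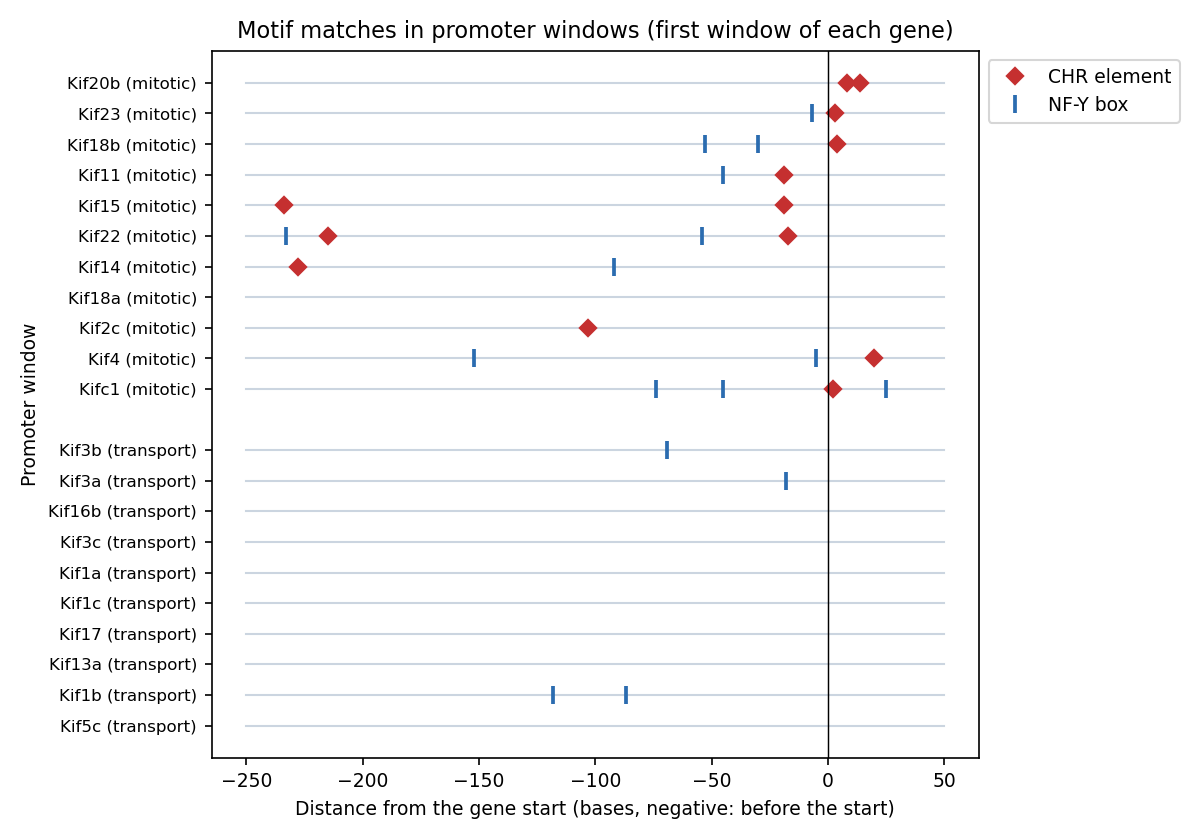
Position of CHR elements (diamonds) and NF-Y boxes (bars) in promoter windows of mitotic and transport kinesins, against the distance from the annotated start in bases; grey lines span each window. In 8 of the 11 mitotic windows a CHR element lies within 20 bases of the start, and the first windows of the 10 transport kinesins hold none (the second window of Kif1a is not drawn).

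Every mitotic kinesin had a higher mean in tumors than in wild-type luminal cells on the deposited scale, while centring on housekeeping genes, which were themselves mostly higher in tumors, turned the sign of 12 kinesins, among them the mitotic Kif4 and Kifc1. For 10 of the 12, every tumor array lay above every wild-type array, which was so for 14.0% of all genes. The median difference was 1.67 log2 units over the 12 mitotic kinesins, -0.02 over the 15 transport kinesins, 0.06 over the 13 others and -0.12 over all 22180 genes. Kif2a and Kif2b, kinesin-13 motors like the mitotic Kif2c, were placed among the others and had lower means (-0.26 and -0.32). Kif2b lay under the background mark on every array. With both counted as mitotic, the mitotic median was 1.58. In limma, after Benjamini-Hochberg adjustment over all genes at a threshold of 0.05, the mitotic motors Kif20b and Kif14 rose and the transport motor Kif5c fell. These are 3 of 40 kinesins, where 3.91% of all genes passed (2.52% upward and 1.39% downward). At an unadjusted p under 0.05, 10 of the 12 mitotic kinesins were higher, against 13.4% of all genes. The other 10 mitotic kinesins had higher means without passing over all genes, with SDs among tumors of up to 1.37 (Kif11). All mitotic kinesins but Kif18b and Kifc1 had at least 1 wild-type value under the background mark. The sizes of their differences are therefore those of the RMA values only. After centring on 13 housekeeping genes, 12 kinesins passed, 5 upward and 7 downward, while 7523 of all 22180 genes passed, 548 upward and 6975 downward. Leaving out tumor 24 left 8 kinesins past the threshold, 7 upward and 1 downward, and 1200 of all genes, 904 upward and 296 downward. Without wild-type replicate 1 or tumor 25 only Kif20b passed, and without wild-type replicate 2, wild-type replicate 4 or tumor 23 none did. Over all genes, 867 passed with all arrays, 138 without wild-type replicate 1 and 375 without tumor 25. Without wild-type replicate 2, wild-type replicate 4 or tumor 23, the calls over all genes were 170, 72 and 142.

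**Figure D2:**
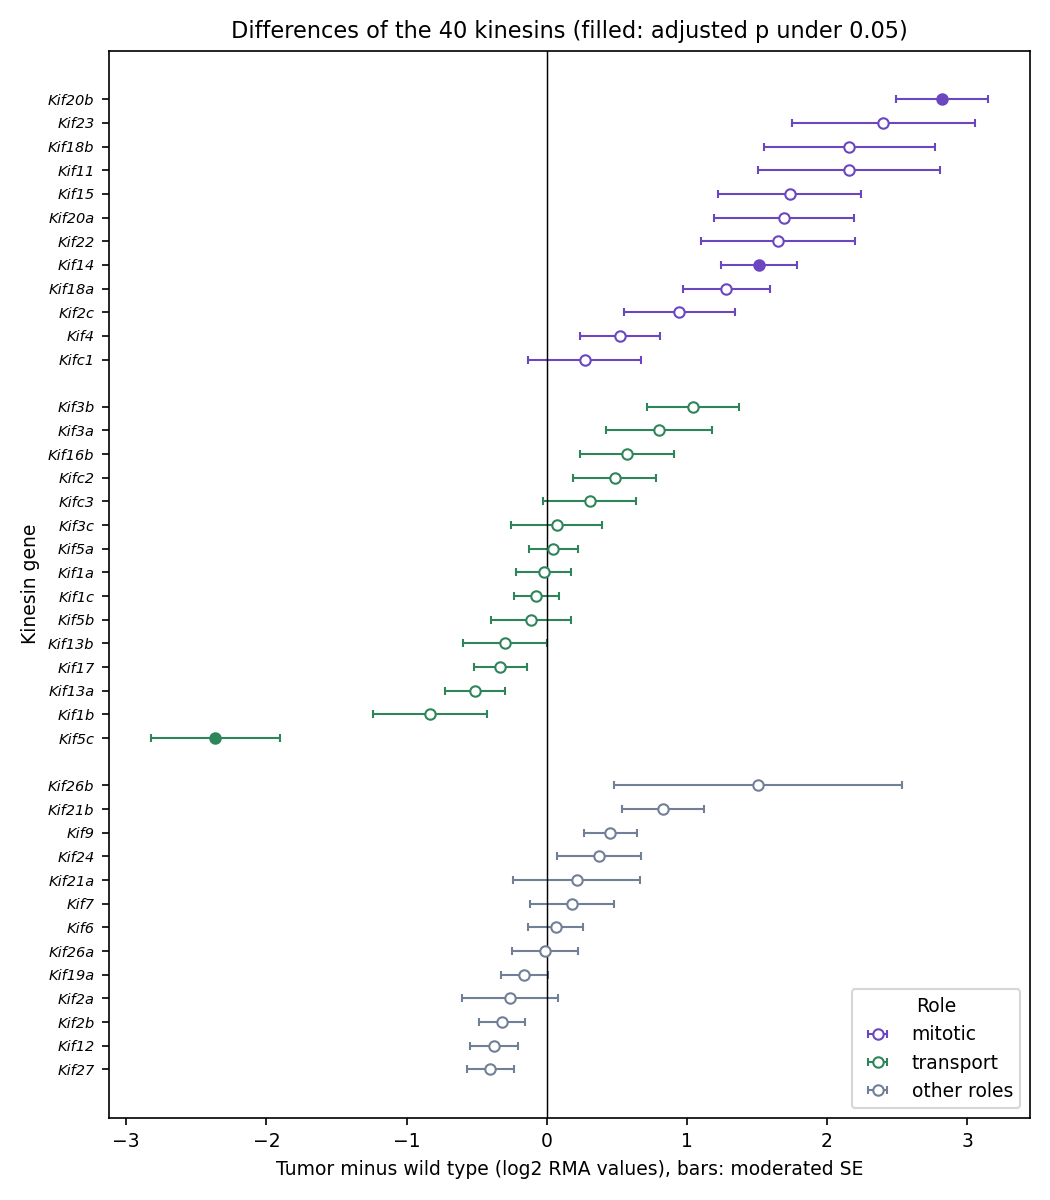
Difference in mean log2 RMA value, tumor minus wild type, for the 40 kinesins grouped by role (n = 3 and 3); bars are moderated standard errors and filled points passed the adjusted threshold. All 12 mitotic kinesins lie right of zero on the deposited scale (Kif4 and Kifc1 lie left of it after centring on housekeeping genes), while 7 transport kinesins lie right and 8 left of it (2 right after that centring).

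Motors of cytokinesis and the spindle midzone included the member with the largest difference. Kif20b, a kinesin-6 motor that acts in late cytokinesis, measured 4.25, 3.38 and 3.81 in wild-type replicates 1, 2 and 4 and 6.47, 6.24 and 7.18 in tumors 23, 24 and 25. The groups stood far apart, with each tumor about 2 units or more above the highest wild-type array. Wild-type replicate 2 was under its background mark and replicate 4 only just above its own, so the size of the rise is that of the RMA values only. It was 2.82 ± 0.33 (SE) on the log2 scale, or 7.06-fold in those values, and limma gave an adjusted p of 0.016. It ranked 82 of 22180 genes by the size of its rise. The adjusted p was 0.053 without wild-type replicate 2, 0.073 without wild-type replicate 4 and 0.052 without tumor 23.

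Kif14, a kinesin-3 motor that works with the kinase Cit at the midbody, measured 2.58, 2.84 and 2.64 in wild-type cells and 3.91, 3.94 and 4.76 in tumors. Each wild-type value was below its array's background mark, and each tumor value above it. For the rise of 1.52 ± 0.27 (SE), limma gave an adjusted p of 0.039. Since its starting point is not told from background, the size is that of the RMA values only. Kif14 stayed past the threshold without tumor 24, at an adjusted p of 0.041. It did not pass without wild-type replicate 1 (adjusted p of 0.12), 2 (0.096) or 4 (0.12), nor without tumor 23 (0.072) or 25 (0.052).

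The central spindle motors Kif23 and Kif20a were higher in every tumor without passing the test. Kif23, the motor subunit of centralspindlin, measured 4.98, 2.87 and 4.43 in wild-type cells and 6.67, 5.53 and 7.29 in tumors. Its difference was 2.40 ± 0.65 (SE) with an adjusted p of 0.093, and its wild-type arrays alone spanned about 2 units, from replicate 2 at the bottom to replicate 1 at the top. Kif20a, which brings the chromosomal passenger complex to the midzone, measured 3.63, 3.91 and 4.08 in wild-type cells and 5.37, 4.64 and 6.70 in tumors. Its difference was 1.69 ± 0.50 (SE), and the adjusted p in limma was 0.11, or 0.047 without tumor 24.

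Spindle pole and chromosome motors showed the same order of the tumors. Kif11, the kinesin-5 motor that pushes spindle poles apart, measured 3.87, 3.47 and 4.02 in wild-type cells and 6.03, 4.54 and 7.26 in tumors. Tumor 25 stood highest and tumor 24 only just above wild type. Its difference was 2.16 ± 0.65 (SE) with an adjusted p of 0.11, and of 0.026 without tumor 24. Kif15, a kinesin-12 motor that can stand in for Kif11 in keeping poles apart, measured 4.81, 3.33 and 3.62 in wild-type cells and 5.32, 5.12 and 6.51 in tumors. Wild-type replicate 1 came close to the lower tumors, and the difference of 1.73 ± 0.51 (SE) had an adjusted p of 0.11. Kif22, a chromokinesin that pushes chromosome arms towards the equator, measured 4.32, 3.83 and 4.00 in wild-type cells and 5.71, 4.55 and 6.84 in tumors. It differed by 1.65 ± 0.55 (SE), with an adjusted p of 0.13, and of 0.036 without tumor 24.

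The mitotic kinesin-8 motors Kif18a and Kif18b, which act at microtubule plus ends, were higher in all tumors. Kif19a, a kinesin-8 placed among the other roles, differed by -0.16. Kif18b measured 4.35, 4.54 and 4.21 in wild-type cells and 6.26, 5.38 and 7.94 in tumors. Its wild-type arrays agreed within 0.17 (SD, n = 3) while the tumors had an SD of 1.30, and the difference of 2.16 ± 0.61 (SE) had an adjusted p of 0.099. Kif18a measured 4.19, 3.53 and 4.37 in wild-type cells and 5.52, 4.84 and 5.58 in tumors. It differed by 1.28 ± 0.31 (SE) at an adjusted p of 0.074. Without tumor 24 both passed, at 0.040 for Kif18b and 0.048 for Kif18a.

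Differences were smaller for 3 mitotic motors. Kif2c, a kinesin-13 that takes microtubules apart at centromeres to correct wrong attachments, measured 4.20, 3.40 and 4.27 in wild-type cells and 4.46, 4.61 and 5.65 in tumors. The groups only just separated, and the difference of 0.95 ± 0.39 (SE) had an adjusted p of 0.19. Kif4, a chromokinesin that also organises the midzone, measured 2.54, 2.87 and 2.92 in wild-type cells and 2.87, 3.18 and 3.85 in tumors, with only tumor 25 above the background mark. Kifc1, the minus-end motor that clusters centrosomes, was the mitotic member with the smallest difference, 0.27 ± 0.40 (SE), with an adjusted p of 0.66. It measured 5.73, 4.36 and 5.44 in wild-type cells and 5.80, 5.0 and 5.55 in tumors, so that the groups overlapped. Kifc1 has a close copy, Kifc5b, whose own probe set measured 3.42, 4.67 and 3.16 in wild-type cells and 3.47 to 3.59 in tumors. In wild-type replicate 2, Kifc1 was at its lowest and Kifc5b at its highest, and probes of close copies can share signal, so the values of this pair are uncertain. Without wild-type replicate 2 the Kifc1 difference changed sign, to -0.14.

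**Figure D3:**
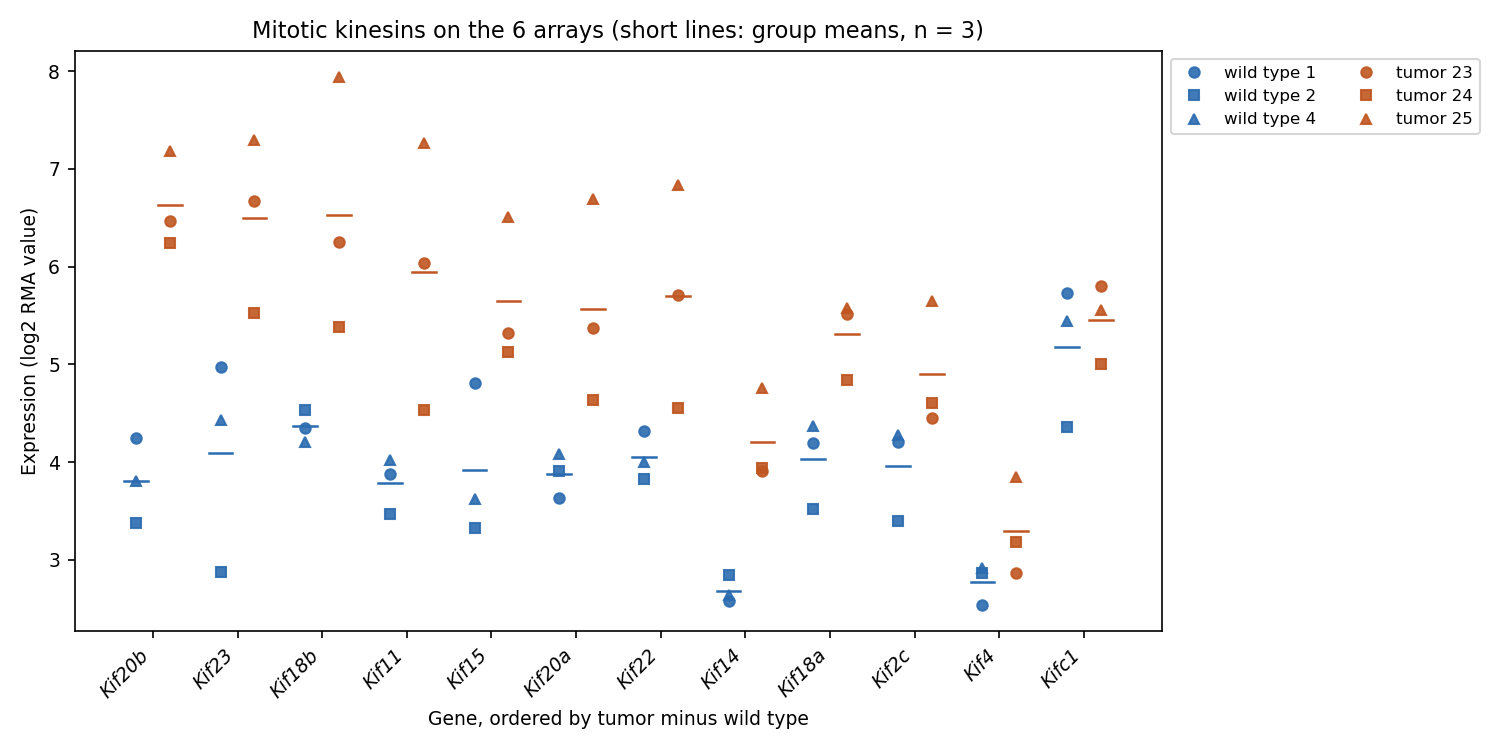
Log2 RMA values of the 12 mitotic kinesins on each of the 6 arrays (blue wild type, orange tumor; marker shape gives the replicate, short lines are group means). Tumor 25 is the highest array for 11 genes and tumor 24 the lowest tumor for 9.

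The tumors differed among themselves in a similar way across the mitotic motors. Tumor 25 was the highest of the 3 tumors for 11 of 12 mitotic kinesins, all but Kifc1, and tumor 24 was the lowest for 9. Against the wild-type mean, the median over the mitotic kinesins lay 2.69 higher in tumor 25, 1.49 higher in tumor 23 and 0.79 higher in tumor 24. Among wild-type arrays, replicate 2 was the lowest for 8 of the 12, with a median of -0.37. Over the 15 transport kinesins the medians on the tumor arrays were 0.13, -0.12 and -0.05 in tumors 25, 23 and 24. Tumor 25 was the highest tumor for 7 of the 15 transport kinesins and tumor 24 for the same number. Mki67, the common marker of cycling cells, measured 5.93, 4.62 and 5.65 in wild-type cells and 7.50, 7.92 and 8.53 in tumors. For its rise of 2.58 ± 0.42 (SE), the adjusted limma p was 0.032. Wild-type replicate 2 was again lowest and tumor 25 highest, but for Mki67 tumor 24 stood above tumor 23. Mki67 lost its call in every leave-one-out set except that without tumor 24. Top2a, a topoisomerase of dividing cells, was 2.06 ± 0.56 (SE) higher without passing, and the replication clamp Pcna 0.86 ± 0.48 (SE) higher, also without passing. The part of the share of cycling cells in these differences was not tested.

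**Figure D4:**
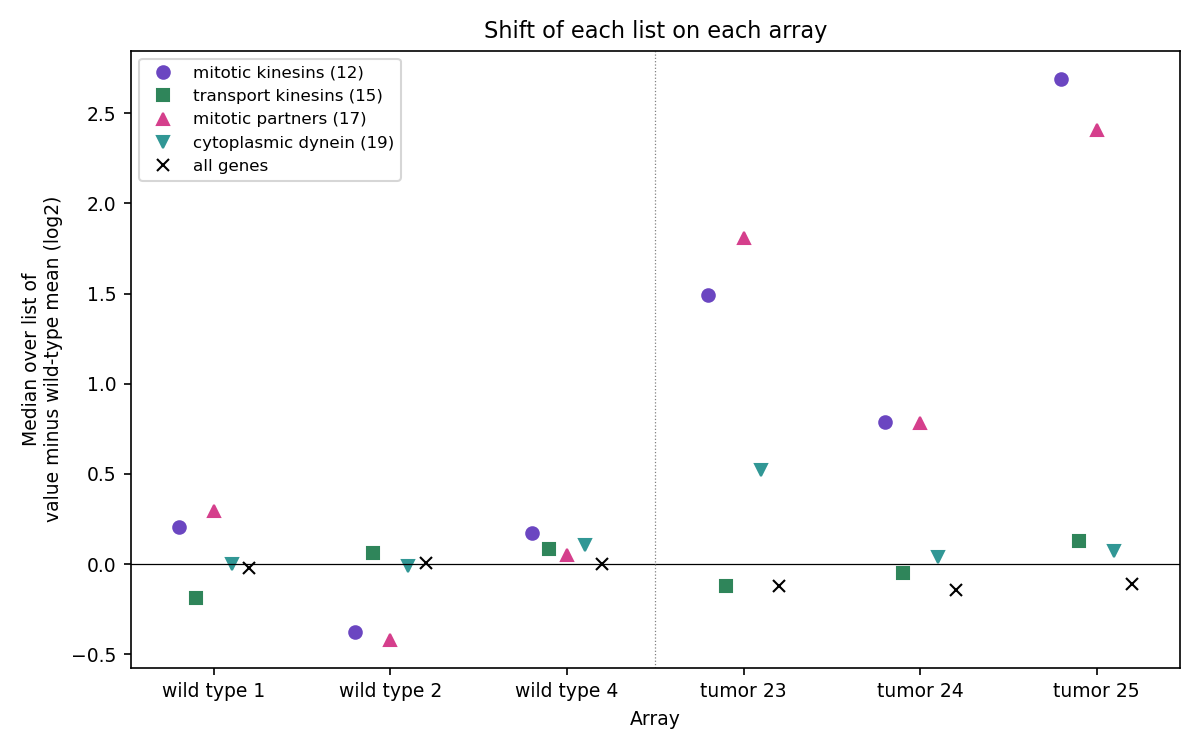
Median over each gene list of the value on an array minus the wild-type mean (log2 units), for the 6 arrays; cytoplasmic dynein and all genes are drawn beside the kinesins. Mitotic kinesins and their partners lie between 0.78 and 2.69 on the tumor arrays, and transport kinesins between -0.12 and 0.13.

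Genes that work with the mitotic motors lay higher in the same tumors. Of 17 measured partners, which include the kinases Aurkb and Plk1, the passenger proteins Incenp and Birc5 and the midzone proteins Racgap1 and Prc1, all had higher means in tumors. In 12 of them every tumor lay above every wild-type array, against 14.0% of all genes, and the median difference was 1.64. The kinetochore kinesin Cenpe rose by 1.74 ± 0.26 (SE; adjusted p of 0.026 in limma) and the midbody kinase Cit by 1.02 ± 0.20 (SE; adjusted p of 0.047). The other 15 did not pass, and 2.52% of all genes were called upward. Among 17 genes listed as cell cycle regulators, the median difference was 0.84. Besides regulators of transcription, that list holds Ccnb2, Ccna2 and Cdc25c, with differences of 2.48, 1.78 and 1.86. Mybl2, which joins MuvB complexes at CHR elements in dividing cells, rose by 1.32 ± 0.17 (SE; adjusted p of 0.019), and the DREAM member Rbl1 by 2.53 ± 0.48 (SE; adjusted p of 0.044). With the mean of its probe sets, Mybl2 differed by 0.67 and no longer passed (adjusted p of 0.11), nor did it after centring on housekeeping genes (0.70, adjusted p of 0.087). Rbl1 did not pass after renewed quantile normalization (0.053), and Cit passed neither there (0.056) nor after housekeeping centring (a difference of 0.40), with the trended prior (0.056) or among genes above the median level (0.063). Foxm1, which acts later at the same promoters, measured 0.84 ± 0.27 (SE) higher without passing. Without tumor 24 all of Cenpe, Mybl2, Rbl1 and Foxm1 passed, and Cit passed in no leave-one-out set. Cenpe also passed without tumor 25, and Mybl2 and Rbl1 lost their calls without any of the other 5 arrays. TTTGAA was found in the windows of 9 of the 14 partners and 6 of the 12 listed cell cycle regulators that had one.

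Of the transport kinesins, 1 fell and 14 did not pass, with means higher for 7 and lower for 8; after centring on housekeeping genes 2 of the 7 stayed higher. Tumor arrays lay above all wild-type arrays for 1 of the 15 and below them for 4, against 14.0% and 22.4% of all genes. Kif5c was the only one to pass the test. It is 1 of 3 heavy chains of conventional kinesin (kinesin-1), which carries mitochondria and vesicles, and is best known from neurons. It measured 5.90, 6.38 and 7.09 in wild-type luminal cells and 3.22, 4.60 and 4.46 in tumors. All 3 tumors lay more than 1 unit below the lowest wild-type array, and tumor 23 only just exceeded its background mark. Kif5c fell by 2.36 ± 0.46 (SE) on the log2 scale, 5.15-fold, and limma put its adjusted p at 0.046. It still passed without tumor 24, at 0.045. It did not pass without wild-type replicate 1 (adjusted p of 0.093), 2 (0.12) or 4 (0.13), nor without tumor 23 (0.080) or 25 (0.087).

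The other kinesin-1 heavy chains gave no call. Kif5b, the form found in most tissues, measured 7.65, 8.62 and 8.15 in wild-type cells and 7.84, 8.28 and 7.97 in tumors. The groups lay within each other's range, with a difference of -0.11 ± 0.28 (SE; adjusted p of 0.80). Kif5a, a neuronal form, lay at 3.46 to 3.73 in wild-type cells, with 2 of 3 arrays under the mark, and at 3.52 to 3.80 in tumors. Whether Kif5c differs from its relatives in its response was not tested. Of the neuron markers, 4 of 8 lay under the background mark on all 6 arrays, and the list averaged 3.28 to 3.40 on wild-type arrays and 3.17 to 3.28 on tumor arrays. The luminal list had medians of -0.87, -2.17 and -1.54 in tumors 23, 24 and 25 against the wild-type mean, least lowered in tumor 23, where Kif5c was lowest. None of its 6 genes passed in limma, all 6 had lower means, and 4 had an unadjusted p under 0.05, against 26.4% of all genes in either direction. The part of luminal cell content in the fall of Kif5c was not tested.

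Heterotrimeric kinesin-2, which moves cargo into cilia and carries other cargo, had higher means for its Kif3a and Kif3b motors. Kif3b measured 4.46, 4.91 and 5.18 in wild-type cells and 5.65, 5.52 and 6.51 in tumors. The groups did not overlap, yet the difference of 1.05 ± 0.33 (SE) had an adjusted p of 0.12. Kif3a measured 5.95, 4.79 and 6.03 in wild-type cells and 6.02, 6.52 and 6.63 in tumors, a difference of 0.80 ± 0.38 (SE; adjusted p of 0.23). Tumor 23 lay within the wild-type range. Kifap3, the accessory subunit that joins both motors, was 1.35 ± 0.38 (SE) higher without passing (adjusted p of 0.099). Kif3c, a motor that can replace Kif3a as partner of Kif3b, differed by 0.07 ± 0.32 (SE), and Kif17, a homodimeric kinesin-2 of dendrites and cilia, by -0.33 ± 0.19 (SE).

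Kinesin-3 motors of vesicles and endosomes gave no called member. Kif1b, which carries mitochondria and synaptic vesicle precursors, measured 6.66, 7.08 and 6.90 in wild-type cells and 5.10, 6.46 and 6.57 in tumors. All tumors were lower, but tumor 23 accounted for most of the gap, and the difference of -0.83 ± 0.41 (SE; adjusted p of 0.24) was -0.36 without it. Kif1c, a motor of integrin vesicles and RNA transport, measured 5.55, 5.78 and 5.64 in wild-type cells and 5.54, 5.61 and 5.61 in tumors. The groups overlapped, with small SDs of 0.12 and 0.04 (n = 3). Kif13a, which moves recycling endosomes, measured 5.78 to 5.80 in wild-type cells and 4.90 to 5.56 in tumors, a separation without a call (adjusted p of 0.19). Differences of Kif13b, Kif16b, Kif1a and Kif5a lay between -0.30 and 0.57. The transport kinesins of the kinesin-14 family, Kifc2 and Kifc3, were 0.48 and 0.31 higher without passing, and Kifc2 had all 3 wild-type values under the background mark.

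**Figure D5:**
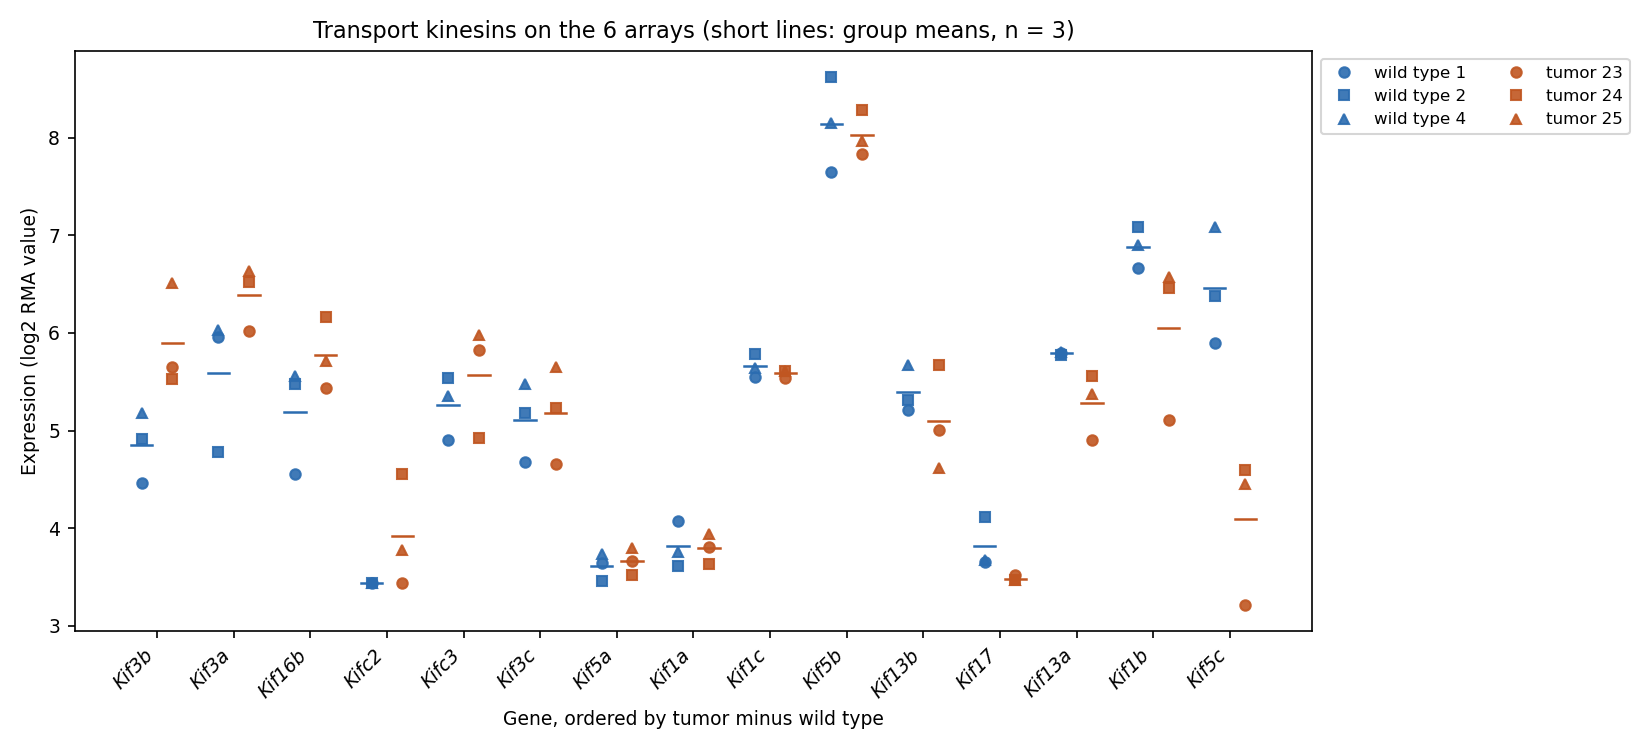
Log2 RMA values of the 15 transport kinesins on each of the 6 arrays (blue wild type, orange tumor; marker shape gives the replicate, short lines are group means). The tumor values of Kif5c, 3.22 to 4.60, lie below its wild-type values of 5.90 to 7.09, while most other genes overlap.

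None of the 13 kinesins of other or mixed roles passed in limma, and 2 were higher at an unadjusted p under 0.05, a share near the 13.4% of all genes. Background bears on most of them: 8 of the 13 were under the mark in every wild-type array, and Kif12, Kif27 and Kif2b in all 6 arrays. Kif27, a relative of the ciliary regulator Kif7, measured 2.97, 2.90 and 2.83 in wild-type cells and 2.45, 2.68 and 2.36 in tumors. By the brightest probe sets, its difference of -0.40 ± 0.17 (SE, adjusted limma p of 0.19) was the lowest of this group. It lies between values that are not told from background. The other probe set of Kif27 differed by -0.08, and the mean of its probe sets by -0.24. Kif26b, an atypical kinesin of cell adhesion and polarity, measured 3.58, 3.58 and 3.85 in wild-type cells and 3.90, 7.78 and 3.85 in tumors. Its difference of 1.51 ± 1.03 (SE) came from tumor 24, and without that tumor it was 0.21. Fibroblast markers also averaged highest in tumor 24, at 7.20 against 6.61 and 6.02 in tumors 23 and 25. In wild-type cells they averaged 5.38 to 5.81. The members were split, with Col1a1, Col1a2, Col3a1 and Pdgfrb highest in tumor 24. Dcn and Lum were highest in tumor 23, and Pdgfra and Fbln2 in tumor 25. The part of fibroblasts in the Kif26b value was not tested. Kif21b, which regulates microtubule growth in neurons and lymphocytes, measured 3.66, 3.55 and 3.38 in wild-type cells and 4.33, 4.92 and 3.83 in tumors. All 3 wild-type values were under the mark, and the difference of 0.83 ± 0.30 (SE) had an adjusted p of 0.15. Kif9, a motor of sperm and cilia, was 0.46 ± 0.19 (SE) higher (adjusted p of 0.19), from wild-type values of 3.34 to 3.43 that were also under the mark; centring on housekeeping genes turned its sign, to -0.17. Its tumor values were 3.63, 3.80 and 4.12. Markers of multiciliated cells averaged 3.33 to 3.44 on wild-type arrays and 3.14 to 3.27 on tumor arrays. Kif2a, a kinesin-13 that acts at spindle poles and in neurons, measured 5.44, 6.06 and 6.80 in wild-type cells and 5.77, 5.85 and 5.89 in tumors. The tumors lay inside the wild-type range, and the difference of -0.26 changed sign, to 0.086, without wild-type replicate 4. The remaining members of this group differed by -0.37 to 0.37.

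Partners of transport motors and the opposing motor were measured as well. None of 14 light chains, adaptors and other kinesin cofactors passed in limma, and the list median was 0.26. At an unadjusted p under 0.05, 4 of the 14 were higher, against 13.4% of all genes. Trak2, an adaptor between kinesin-1 and mitochondria, measured 1.18 ± 0.38 (SE) higher and the light chain Klc4 0.65 ± 0.23 (SE). Of 19 genes of cytoplasmic dynein, dynactin and their regulators, Nde1 alone passed. Nde1, which also acts at the kinetochore, rose by 1.65 ± 0.26 (SE; adjusted p of 0.031 in limma), passed without tumor 24 (0.023) and lost its call without any of the other 5 arrays. The dynein heavy chain Dync1h1 differed by -0.36 ± 0.28 (SE), and the list median was -0.02. Tumor arrays lay above all wild-type arrays for 7 of the 19 and below them for 2, against 14.0% and 22.4% of all genes. An unadjusted limma p under 0.05 was found for 8, 6 higher and 2 lower, against 26.4% of all genes in either direction.

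Markers of other cell types differed between the groups beside the kinesins. Of 8 macrophage genes 6 rose (C1qa, C1qb, C1qc, Cd68, Adgre1 and Csf1r), against 2.52% of all genes called upward. Lyz2 was 1.62 higher without passing, and Cd14 differed by -0.71. All wild-type values of C1qc and Adgre1 were under the background mark. The macrophage list averaged 4.50 to 5.27 on wild-type arrays and 6.85 to 7.55 on tumor arrays. Leaving out single arrays, C1qa and C1qb passed in all 6 sets, Csf1r in 4, C1qc in 2, Adgre1 in 1 and Cd68 in 0. Cd68 also lost its call after renewed quantile normalization (adjusted p of 0.067) and cyclic loess (0.076). Of 8 fibroblast genes Pdgfrb and Fbln2 rose, again beside 2.52% of all genes. Pdgfrb passed in 2 of the 6 sets without an array and Fbln2 in 0 of them. Renewed quantile normalization also ended the Fbln2 call (adjusted limma p of 0.0503). Dcn, a matrix proteoglycan of the same list, differed by -2.76 ± 0.56 (SE) without overlap and just missed the threshold (adjusted p of 0.052). No skeletal muscle gene of 8 passed, and 2 had an unadjusted p under 0.05, a share near the 26.4% of all genes, although the list stood at a mean of 8.91 in tumor 23 and 6.15 in tumor 25; tumor 24, at 3.65, lay within the wild-type range of 3.55 to 3.73. Endothelial genes averaged 4.44 to 5.16 and 4.40 to 5.51, with none of 6 at an adjusted or unadjusted p under 0.05. Neuron markers gave 0 calls in limma, and again 2 of 8 had an unadjusted p under 0.05; multiciliated markers gave 0 of 6 on both counts. Among 13 housekeeping genes Gapdh, a glycolytic enzyme, rose by 1.08 ± 0.20 (SE; adjusted p of 0.044 in limma). The part of these cell types in the kinesin differences was not tested.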

How the data were processed

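The authors deposited log2 values for each probe set. RMA and oligo are named in the submitters' processing notes, their versions being not given in the sources used here. In general RMA corrects background, quantile-normalizes and summarizes probes, and it compresses differences near background. NuGEN amplification preceded biotin labelling, per the labels. No detection calls, scan dates or probe positions were used, and array number limits the precision.

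Of 41345 probe sets, 23521 named 1 gene, 1814 several and 16010 none; 23328 were matched by Entrez identifier to RefSeq symbols (GRCm38.p6). The brightest probe set stood for each of 22180 genes; Kif5b, Kif7 and Kif27 had a further one. limma 3.58.1 (R 4.3.3; lmFit, eBayes, two-sided, Benjamini-Hochberg over all genes, threshold 0.05) compared tumors with wild-type cells without covariates, and was tested on simulated data. Role lists were counted, with no test over a list. Values in every array are given for all mitotic kinesins and, in each other role list, for called members, the 4 largest differences and 5 broadly expressed genes; of other lists, called genes are named. Members, lists and the motif search were chosen with earlier results of these data known. Alternatives were filters, probe set means, scalings, priors, array weights and leaving out arrays.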

Additional observations from a re-analysis of the deposited data

How the results depend on the processing

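All 12 mitotic kinesins kept higher means in tumors under renewed quantile normalization, cyclic loess and array weights. Filters on dim genes and the trended prior leave a gene's difference as it is, and each mitotic kinesin has a single probe set. Filters, that prior and probe set means therefore could not turn a mitotic sign. A filter at a mean of 5 kept 4 of the 12, and a filter at the median gene kept 10. Kif14 was kept by neither. The median difference of the mitotic kinesins, 1.67, ran from 1.05 (housekeeping centring) to 2.28 (filter at a mean of 5) over the alternatives. That of mitotic minus transport kinesins, 1.69, ran from 1.27 (without tumor 25) to 2.35 (the same filter). These moves were less than 1 SD between tumors, a wide measure, since the mitotic medians of single tumors were 0.79, 1.49 and 2.69. Centring on 13 housekeeping genes shifted the median of all genes to -0.74 and put the transport median at -0.64. It gave 12 called kinesins, 5 higher and 7 lower, of which 5 were mitotic, 4 transport and 3 others. Over all genes it called 548 higher and 6975 lower. The centring also turned 12 kinesins from higher to lower: 2 mitotic (Kif4, -0.10, and Kifc1, -0.35), 5 transport and 5 others, Kif9 (-0.17) among them. Because such centring moves all genes on an array by the same amount, the mitotic minus transport median of 1.69 could not change. Leaving out single arrays gave 0 to 8 called kinesins, 0 to 7 mitotic and 0 to 1 transport ones, while calls over all genes ran from 72 to 1200. Leaving out single arrays turned 10 kinesins, all uncalled and at most 0.27 from 0; those with values in every array were Kif5b (-0.36 to 0.13, turned without wild-type replicate 2), Kifc1 (-0.14 to 0.55, without the same replicate) and Kif2a (-0.59 to 0.086, without wild-type replicate 4). The mean of probe sets turned Kif5b (0.0025) and Kif7, renewed quantile normalization 3 kinesins and cyclic loess 4, none of them mitotic. Kif18b and Kif23 also passed under both filters. No paired analysis was possible because the groups share no replicate numbers. Values near background limit most mitotic kinesins and most kinesins of other roles. Among the mitotic ones, all 3 wild-type values of Kif14 and Kif4 were under the mark, and 2 of Kif15. Kif20b, Kif23, Kif11, Kif20a, Kif22, Kif18a and Kif2c each had 1 such value, and Kif18b and Kifc1 had none.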
